A study of Equus caballus with 10 samples.

Results

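The cluster of miR-143 and miR-145 has 2 members among the 239 miRNAs of the deposited tables, eca-miR-143 and eca-miR-145, which were chosen by name and followed through all 10 libraries together with the ratio of one to the other. Each member has a single entry in the tables, with no arm in its name. The members were chosen as mesenchymal miRNAs, a label that was not tested here. eca-miR-143 was among the abundant miRNAs of these cultures, while eca-miR-145 lay near the limit of detection in most libraries.

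A miRNA is a short RNA that lowers the output of the mRNAs it pairs with, mainly through the seed at its 5′ end. In humans and mice, miR-143 and miR-145 are processed from one shared primary transcript, have different seeds, and are best known from smooth muscle and other mesenchymal cells, where serum response factor and myocardin drive their transcription. There they favour the contractile state by acting on transcription factors such as ELK1 (miR-143) and KLF4 (miR-145). In human and mouse cartilage biology, miR-145 is known for acting on SOX9, the transcription factor that keeps chondrocytes in their differentiated state.

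The libraries hold small RNA from a pull-down for 5-ethynyl uridine (5-EU), a uridine analogue that donor cells build into new RNA. EV-recipient synoviocytes from 4 horses had received EVs (extracellular vesicles) pooled from labelled chondrocytes of 8 horses and were kept at 25% oxygen. EV-recipient chondrocytes from 5 horses had received EVs pooled from labelled synoviocytes of 9 horses and were kept at 5% oxygen. All cells were primary equine cells from metacarpophalangeal joints, donors were labelled for 48 h and recipients were exposed for 24 h. One further synoviocyte library came from a culture given EVs of unlabelled chondrocytes of 2 horses. It is named as a control by the study and by the group row of the tables, but not by its sample labels, so it entered no comparison. Recipient cell type, EV source, EV pool, EV dose and oxygen changed together and cannot be told apart. By the study's account, EV-recipient synoviocytes were given more EVs per mL of medium than EV-recipient chondrocytes. Libraries of a group differ in recipient horse while they share a single EV pool. These are bulk libraries, in which fewer cells of a type and less RNA per cell cannot be told apart. Depth was 17151 to 436475 miRNA counts in EV-recipient synoviocytes and 4891 to 444408 in EV-recipient chondrocytes, and abundances are in RPM, the share of a miRNA among all miRNA counts of its library. Intervals are at a nominal 95% confidence, treat each read as an independent count and leave out the spread between horses. Amplified reads carried no molecular identifiers, so the intervals may be too narrow.

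Both members had their higher mean RPM in the EV-recipient synoviocyte group. Only eca-miR-143 was abundant enough for the main test. It stood at 36299.9, 11187, 75552 and 29736 RPM in the EV-recipient synoviocyte libraries (replicates 1 to 4), against 16145.5, 4305, 1688, 3006 and 11328 RPM in the EV-recipient chondrocyte libraries (replicates 1 to 5). Of the 4 synoviocyte libraries, 3 lay above every chondrocyte library, and 3 of the 5 chondrocyte libraries lay below every synoviocyte library. The groups overlapped through synoviocyte replicate 2, which fell below chondrocyte replicates 1 and 5. The Wilson intervals of synoviocyte replicate 2 (10726 to 11667 RPM) and chondrocyte replicate 5 (10686 to 12008 RPM) overlapped, whereas chondrocyte replicate 1, at 12980 to 20084 RPM from only 79 counts, lay above both.

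**Figure D1:**
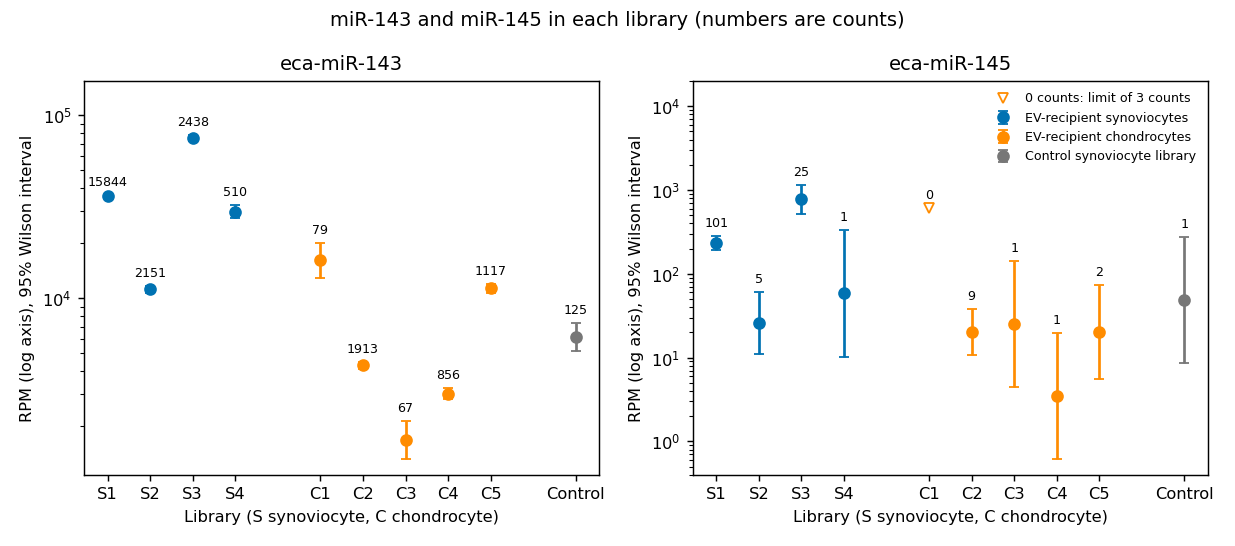
RPM of eca-miR-143 (left) and eca-miR-145 (right) in each library on log axes, with 95% Wilson intervals as bars and the raw count printed above each point; S1 to S4 are EV-recipient synoviocytes, C1 to C5 EV-recipient chondrocytes, and the open triangle marks the limit of 613 RPM (3 counts) for a library with 0 counts. For eca-miR-143, 3 of the 4 synoviocyte libraries lie above all chondrocyte libraries; for eca-miR-145, the intervals of S2 and S4 overlap those of the chondrocyte libraries.

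Within the libraries, eca-miR-143 ranked 5th, 18th, 2nd and 8th of the miRNAs by RPM in EV-recipient synoviocytes, and 17th, 33rd, 44th, 39th and 23rd in EV-recipient chondrocytes. In synoviocyte replicate 3 only 1 miRNA was more abundant, and eca-miR-143 made up 7.56% of the miRNA counts there. In chondrocyte replicate 3, the library at the other end, it made up 0.169%. By mean RPM it was the 6th miRNA of EV-recipient synoviocytes and the 26th of EV-recipient chondrocytes. The spread between horses was wide in both groups. The highest library held 6.75 times the RPM of the lowest in EV-recipient synoviocytes and 9.56 times in EV-recipient chondrocytes, and the coefficient of variation was 70.9% and 84.9%.

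The mean level was 38194 ± 27081 RPM (SD, n = 4) in EV-recipient synoviocytes and 7294 ± 6192 RPM (SD, n = 5) in EV-recipient chondrocytes. In edgeR's quasi-likelihood test the log2 fold change was 2.62 (standard error 0.66, adjusted p = 0.0284). Of the 49 miRNAs that passed the abundance filter, eca-miR-143 had the highest fold change, and it was the only one higher at an adjusted p under 0.05, which is 2.04% of those tested. In either direction 4 of the 49 passed, or 8.16%. The result rested on several single libraries: the adjusted p was 0.0889, 0.0537, 0.0896 and 0.0524 without chondrocyte replicate 2, 3, 4 or 5 and 0.0871 without synoviocyte replicate 3, at log2 fold changes of 2.10 to 2.95. It was 0.137 and 0.122 in limma on log2(RPM + 1) and log2(RPM + 10), while the direction held in every setting that was run.

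**Figure D2:**
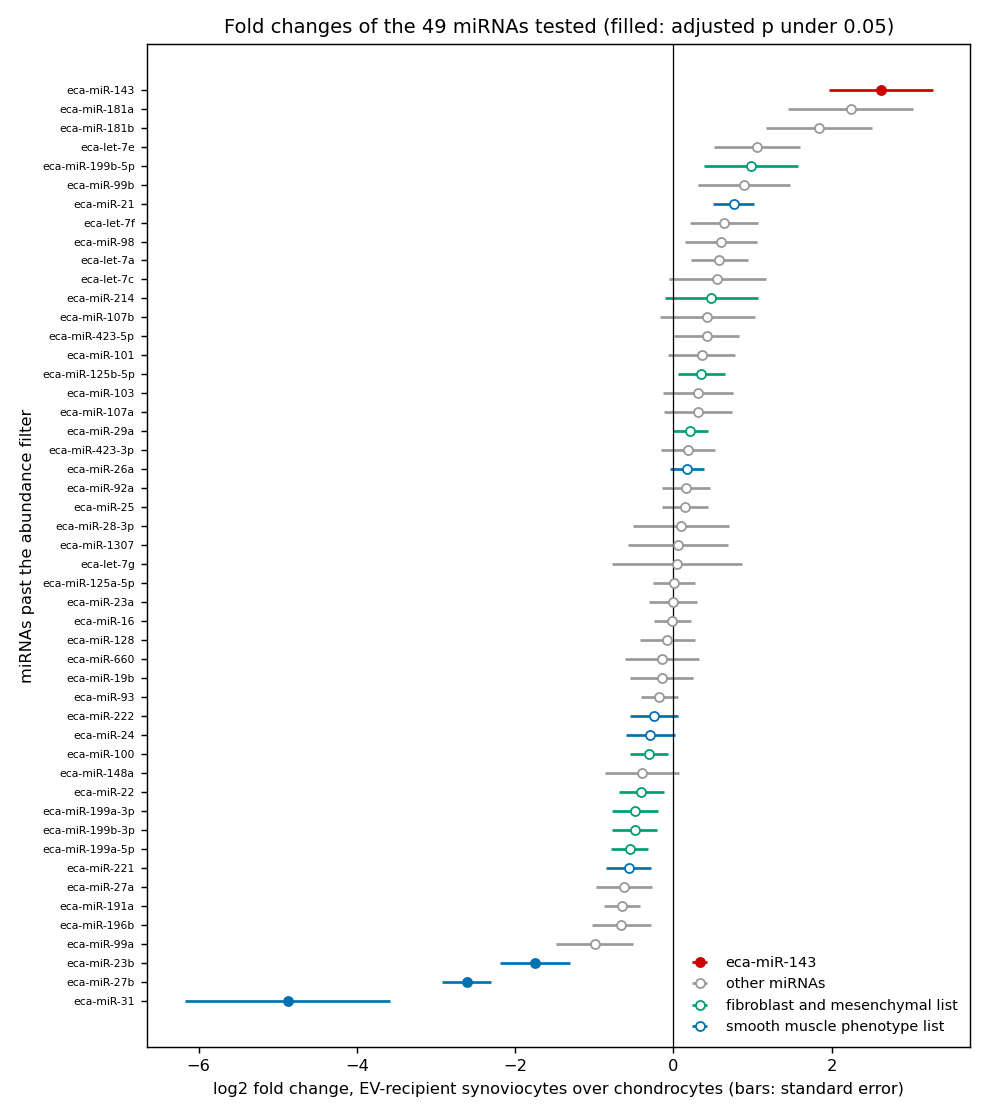
Log2 fold change of each of the 49 tested miRNAs, EV-recipient synoviocytes over EV-recipient chondrocytes, with standard errors as bars and filled points for an adjusted p under 0.05 in edgeR. eca-miR-143 stands at the top with 2.62, and the lower end holds the 3 filled points of miRNAs that fell.

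eca-miR-145 was sparse. In EV-recipient synoviocytes the libraries held 101, 5, 25 and 1 counts of it, against 0, 9, 1, 1 and 2 counts in EV-recipient chondrocytes. Of the 9 labelled libraries 8 held at least 1 count, but only 2 held at least 10, both of them synoviocyte libraries. Replicates 1 and 3 carried 95.5% of the 132 counts of the EV-recipient synoviocytes.

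In RPM, eca-miR-145 stood at 231, 26.0, 775 and 58.3 in EV-recipient synoviocytes, against 0, 20.2, 25.2, 3.51 and 20.3 in EV-recipient chondrocytes. Every synoviocyte library thus lay above every chondrocyte library, as was the case for 6 of the 239 miRNAs (2.51%). The gap between the groups was smaller than 1 count: the lowest synoviocyte library had 5 counts at 5.20 RPM per count, and the highest chondrocyte library had 1 count worth 25.2 RPM. The Wilson intervals of synoviocyte replicate 2 (11.1 to 60.9 RPM) and replicate 4 (10.3 to 330 RPM) covered the values of chondrocyte replicates 2, 3 and 5. Only the intervals of synoviocyte replicate 1 (190 to 281 RPM) and replicate 3 (525 to 1143 RPM) lay above the intervals of chondrocyte replicates 2 to 5.

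The 0 counts of chondrocyte replicate 1 carry little information. At the pooled level of the other chondrocyte libraries, its 4891 miRNA counts would hold 0.0733 counts of eca-miR-145, and a count of 0 there allows up to 613 RPM (a floor of 3 counts). Pooled over libraries, eca-miR-145 made up 195 RPM in EV-recipient synoviocytes (132 of 678177 counts) and 14.9 RPM in EV-recipient chondrocytes (13 of 872370 counts). Synoviocyte replicates 2 and 4 alone pooled to 28.6 RPM, from 6 of 209433 counts.

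The mean level of eca-miR-145 was 273 ± 347 RPM (SD, n = 4) in EV-recipient synoviocytes and 13.8 ± 11.3 RPM (SD, n = 5) in EV-recipient chondrocytes. It passed neither the abundance filter, which asks for 2045 RPM in at least 2 libraries, nor edgeR's own filter. In the fit over all 239 miRNAs its log2 fold change was 4.09 (standard error 1.68, unadjusted p = 0.0150 and adjusted p = 0.177 in edgeR's quasi-likelihood test), with 5.86% of the 239 past an adjusted p of 0.05 in either direction and 10.5% higher at an unadjusted p under 0.05. Without synoviocyte replicate 3 the log2 fold change was 2.94 (unadjusted p = 0.133 in edgeR). DESeq2 gave an adjusted p of 0.0212, and an exact permutation test of log2(RPM + 10), chosen after the data were seen, gave an unadjusted p of 0.00794. That is the smallest that splits of 9 libraries into 4 and 5 allow, it restates the separation of under 1 count given above and is no further support, and limma on the same values gave an adjusted p of 0.484.

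The ratio of the members within a library needs no scaling between libraries. eca-miR-143 outnumbered eca-miR-145 in all 9 labelled libraries. The ratio was 157, 430, 97.5 and 510 in EV-recipient synoviocytes (replicates 1 to 4), against 213, 67.0, 856 and 558.5 in EV-recipient chondrocyte replicates 2 to 5. For chondrocyte replicate 1, with 79 counts of eca-miR-143 and none of eca-miR-145, the exact interval of the ratio, built as for the other libraries, starts at 20.9 and has no upper end. Where eca-miR-145 had 1 count the exact interval of the ratio spanned from 91.1 to 20183 in synoviocyte replicate 4, from 11.6 to 2685 in chondrocyte replicate 3 and from 153 to 33849 in chondrocyte replicate 4. The best measured ratios were those of synoviocyte replicate 1 (129 to 193) and synoviocyte replicate 3 (65.9 to 151), and the interval of chondrocyte replicate 2 (112 to 466) overlapped both.

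**Figure D3:**
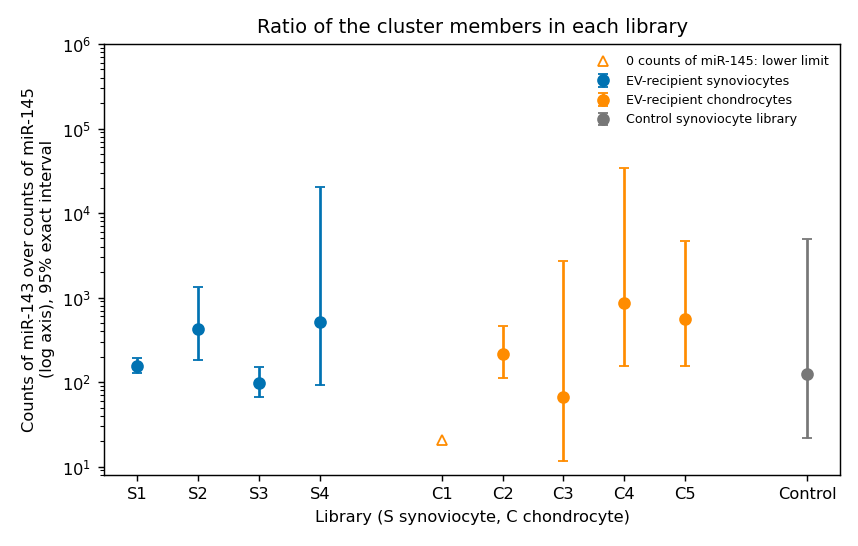
Counts of eca-miR-143 over counts of eca-miR-145 in each library on a log axis, with 95% exact (Clopper-Pearson) intervals; the open triangle marks the lower limit of 20.9 for chondrocyte replicate 1, which had 0 counts of eca-miR-145. The ratios of EV-recipient synoviocytes (97.5 to 510) lie within the range of EV-recipient chondrocytes (67.0 to 856).

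The mean log2 ratio, with 0.5 counts added to each member, was 7.72 ± 0.96 (SD, n = 4) in EV-recipient synoviocytes and 7.68 ± 1.45 (SD, n = 5) in EV-recipient chondrocytes. The difference of 0.04 was far smaller than the spread between libraries (exact permutation test, two-sided, p = 0.976). Differences between -2.05 and 2.19 on the log2 scale were not refused by this test, so the data leave the size and the direction of a change in the ratio undetermined within that interval. With all counts of a group added up, the ratio was 159 (134 to 190) in EV-recipient synoviocytes and 310 (181 to 583) in EV-recipient chondrocytes, values that follow the deepest libraries and whose intervals do not hold the spread between horses.

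Summed over both members, the cluster averaged 38466 ± 27417 RPM (SD, n = 4) in EV-recipient synoviocytes and 7308 ± 6187 RPM (SD, n = 5) in EV-recipient chondrocytes, a ratio of means of 5.26 that was 3.54 without synoviocyte replicate 3 and 7.54 without chondrocyte replicate 1. Nearly all of each sum was eca-miR-143.

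Other miRNAs known to lie in shared clusters were set beside the pair, as a description of how far 2 members of a cluster can drift apart in these libraries. Of 10 such pairs, 5 had counts of both members in all 9 labelled libraries. eca-miR-221 over eca-miR-222 had a median ratio of 0.948 over the libraries and spanned 1.67 times, and eca-miR-23a over eca-miR-27a had a median of 2.66 and spanned 2.01 times. The ratio of eca-miR-25 to eca-miR-93 spanned 3.73 times. The other pairs varied more, at 14.4 times for eca-miR-23b over eca-miR-27b and 15.7 times for eca-miR-15a over eca-miR-16. The lowest count in the last of these pairs was 1, so its span includes counting error. With the same 0.5 counts added, the ratio of eca-miR-143 to eca-miR-145 had a median of 201 and spanned 12.7 times. Both ends of that span came from libraries with 1 count of eca-miR-145, chondrocyte replicates 3 and 4. The other 5 pairs, which like eca-miR-143 and eca-miR-145 had 0 counts of a member in some libraries, spanned 10.1 to 1019.9 times on the same scale.

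RPM values describe the share of a miRNA among miRNAs, not its amount. Set against the spike-in calibrators added before library preparation, eca-miR-143 had 90.5, 10.5, 18.1 and 1.88 counts per 1000 spike-in counts in EV-recipient synoviocytes, against 0.217, 10.1, 0.524, 4.33 and 4.35 in EV-recipient chondrocytes. On this scale the groups overlapped widely, with synoviocyte replicate 4 below 3 of the chondrocyte libraries. With spike-in counts as library size, the log2 fold change of eca-miR-143 was 2.95 with a standard error of 1.62 (unadjusted p = 0.0702, adjusted p = 0.997 in edgeR's quasi-likelihood test). That of eca-miR-145 was 3.81 with a standard error of 2.41 (unadjusted p = 0.115, adjusted p = 0.489 in edgeR). eca-miR-145 had 0.577, 0.0244, 0.185 and 0.00370 counts per 1000 spike-in counts in EV-recipient synoviocytes, against 0, 0.0476, 0.00782, 0.00506 and 0.00779 in EV-recipient chondrocytes.

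**Figure D4:**
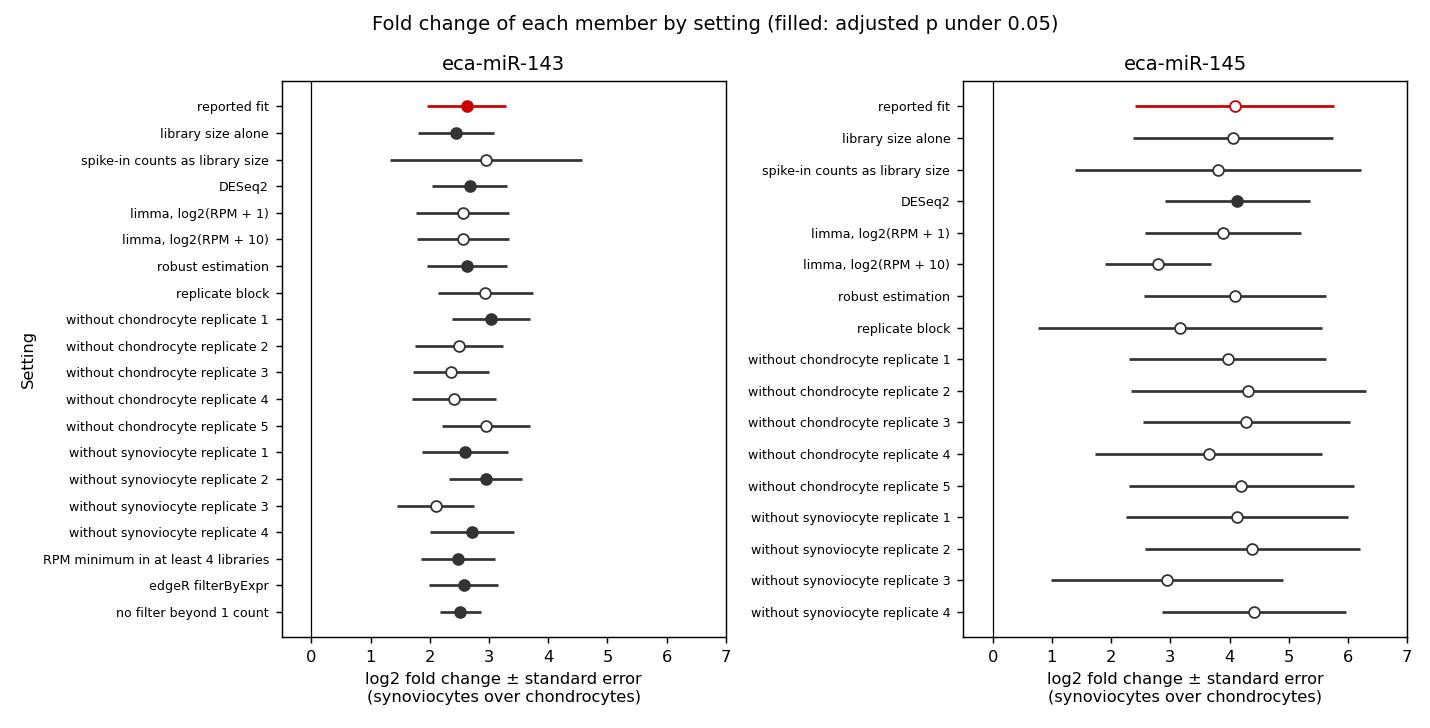
Log2 fold change of eca-miR-143 (left) and eca-miR-145 (right), EV-recipient synoviocytes over EV-recipient chondrocytes, under the reported fit (top, red) and each alternative with a standard error, shown as bars; filled points have an adjusted p under 0.05. All values lie above 0, and for eca-miR-143 they run from 2.10 to 3.03.

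Other miRNAs that act on smooth muscle phenotype were set beside the members. Of the 15 on that list, 12 were in the tables and 8 were tested, of which none rose and 3 fell at an adjusted p under 0.05 in edgeR, against 2.04% higher and 6.12% lower of all 49 (at an unadjusted p under 0.05, 1 was higher and 3 were lower, against 8.16% and 10.2% of all 49, or 18.4% in either direction), with a median log2 fold change of -0.43 against 0.06 over all 49. Those that fell were eca-miR-27b and eca-miR-23b, which share a cluster, at log2 fold changes of -2.61 and -1.75, and eca-miR-31, at -4.88. They were all that fell at that threshold among the 49. Because the list was chosen with earlier results of these data known, its share and median are a description and no support. eca-miR-31 had 67, 0, 0 and 0 counts in EV-recipient synoviocytes, against 0, 320, 167, 955 and 231 counts in EV-recipient chondrocytes. The most abundant of the list was eca-miR-21, known for its high level in many cultured cells, with a fold change of 0.76 on the log2 scale (standard error 0.26) that missed the threshold (adjusted p = 0.108 in edgeR). The clustered pair known in rodents to favour the proliferative state of vascular smooth muscle had log2 fold changes of -0.57 (eca-miR-221) and -0.25 (eca-miR-222), neither past the threshold. eca-miR-146a, best known for restraining inflammatory signalling, was below the abundance filter and is named after its values were seen. It stood at 946, 1654, 2076 and 1166 RPM in EV-recipient synoviocytes, against 0, 245, 806, 228 and 142 RPM in EV-recipient chondrocytes. Every synoviocyte library lay above every chondrocyte library, as was the case for 6 of the 239 miRNAs (2.51%). In the fit over all 239 its log2 fold change was 2.30 (standard error 0.88, unadjusted p = 0.00898 and adjusted p = 0.137 in edgeR).

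Of 14 miRNAs known from fibroblasts and mesenchymal cells, 13 were in the tables and 9 were tested. None passed an adjusted p of 0.05 in edgeR, against 8.16% of all 49, and 1 was lower at an unadjusted p under 0.05, eca-miR-199a-5p, a share near the 10.2% lower among all 49. The median log2 fold change was -0.30, against 0.06 over all 49. The 3 most abundant were eca-miR-100, at 50088 ± 10259 RPM (SD, n = 4) in EV-recipient synoviocytes and 68706 ± 17175 RPM (SD, n = 5) in EV-recipient chondrocytes, eca-miR-29a, at 18099.9 ± 3479.6 RPM in EV-recipient synoviocytes and 17241 ± 2485 RPM in EV-recipient chondrocytes, and eca-miR-125b-5p, at 18824 ± 2237 RPM in EV-recipient synoviocytes and 15943 ± 5961 RPM in EV-recipient chondrocytes.

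The miRNAs whose RPM followed that of eca-miR-143 most closely over the 9 labelled libraries, among the 49, were eca-miR-21 (Spearman's rho = 0.80), eca-miR-181b (0.72), eca-miR-181a (0.62), eca-let-7f (0.40) and eca-let-7e (0.38). These are descriptions over libraries that share their group difference, and RPM values of a library share their total. The highest rho with eca-miR-145 belonged to eca-miR-181a (0.72), eca-miR-21 (0.68), eca-miR-199b-5p (0.68) and eca-miR-99b (0.63), followed by eca-miR-143 itself (0.62), on counts of eca-miR-145 too few to read an order from.

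Markers of other cells were compared with the members in the same libraries. The cartilage miRNAs, both arms of miR-140, summed to 0 to 182 RPM in EV-recipient synoviocytes and 204 to 3805 RPM in EV-recipient chondrocytes. The 204 RPM, in chondrocyte replicate 1, was 1 count. By group mean these miRNAs ran opposite to eca-miR-143. The labelled library highest in miR-140, chondrocyte replicate 3 (3805 RPM), was the lowest in eca-miR-143 (1688 RPM). Not every pair of libraries stood in opposite order. Chondrocyte replicate 5 held 2261 RPM of miR-140 and 11328 RPM of eca-miR-143, against 182 and 11187 RPM in synoviocyte replicate 2. By design, the EVs given to the synoviocytes came from chondrocytes and those given to the chondrocytes from synoviocytes. Whether the captured RNA, eca-miR-143 included, came from EVs or from the recipient cells was not tested. Blood cell miRNAs, 6 of 7 of which were in the tables, summed to 55.0 to 17025 RPM in EV-recipient synoviocytes and 45.6 to 3679 RPM in EV-recipient chondrocytes, and were highest in synoviocyte replicate 4. Their part in the result was not tested. Without that library the log2 fold change of eca-miR-143 was 2.72 (adjusted p = 0.0440 in edgeR) and that of eca-miR-145 was 4.41 (adjusted p = 0.0782). Endothelial miR-126, both arms, summed to 0 to 93.0 RPM in EV-recipient synoviocytes and was at 0 in all 5 chondrocyte libraries. The 3 of 7 skeletal and cardiac muscle miRNAs in the tables summed to 0 to 124 RPM in EV-recipient synoviocytes and 0 to 71.0 RPM in EV-recipient chondrocytes. Epithelial miRNAs, 2 of 6 of which were in the tables, summed to 0 to 1399 RPM in EV-recipient synoviocytes, highest in replicate 4, and 0 to 204 RPM in EV-recipient chondrocytes.

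In the control synoviocyte library, whose EVs carried no label, eca-miR-143 had 125 counts, or 6149 RPM (5163 to 7320), where it ranked 30th. That is below all 4 EV-recipient synoviocyte libraries, whose lowest value was 11187 RPM, and inside the range of the EV-recipient chondrocytes. eca-miR-145 had 1 count there, or 49.2 RPM (8.68 to 279), and the ratio of the members was 125 (22.0 to 4976). No test against this library was run, since its sample labels give it no group. Per 1000 spike-in counts the control held 0.483 counts of eca-miR-143, less than each EV-recipient synoviocyte library (1.88 to 90.5). That value lay inside the range of the EV-recipient chondrocytes (0.217 to 10.1). The control was not the poorest library in miRNA, with 20330 miRNA counts beside 258552 spike-in counts. Synoviocyte replicate 4 had 17151 miRNA counts beside 270632 spike-in counts.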

How the data were processed

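Small RNA from a pull-down for 5-EU was sequenced from 9 recipient cultures given EVs of labelled donor cells (the labelled libraries). It was also sequenced from 1 further synoviocyte culture, given EVs of unlabelled donor cells. Per the labels and the study's methods, reads were processed with FastQC 0.11.9, MultiQC 1.10, cutadapt 3.3 (minimum 17 nt), miRDeep2 and Bowtie 1.3.0, allowing 2 mismatches to the horse genome (EquCab3.0) and 1 mismatch to horse miRNAs of miRBase. The authors deposited raw counts for 239 miRNAs and 8 spike-in calibrators. The authors also deposited RPM. Recomputed from the counts, with spike-ins left out of the total, they differed by at most 0.0472%. Depth was 4891 to 444408 miRNA counts. miRNAs with near-identical sequences may share reads.

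The main test was edgeR 4.0.16 (quasi-likelihood, TMM) in R 4.3.3, on miRNAs that reached 2045 RPM, equal to 10 counts at the lowest depth, in at least 2 libraries, with Benjamini-Hochberg adjustment over all 49 tested. eca-miR-145, which failed this filter, was taken from the fit over all 239. In that fit the standard error of eca-miR-143 was 0.34, against 0.66 with the filter, so its p-values may understate the spread between horses. Standard errors are the log2 fold change over the square root of F. Alternatives were DESeq2 1.42.0, limma 3.58.1, other filters, library size alone, spike-in scaling, each library left out and a replicate block. Ratios were compared with an exact permutation test. Groups came from the sample titles. No library was a repeat of another of its group, the lowest chi-square per degree of freedom between them being 11.9. Members and lists were chosen with earlier results of these data known. By rule, the text names both members, the 5 miRNAs most like each, those of each list that passed or were its most abundant, and the clustered pairs with counts in all libraries. eca-miR-146a and eca-miR-199a-5p are named outside this rule. Sequences are not shown.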

Additional observations from a re-analysis of the deposited data

Results flagged for a closer look

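Per 1000 spike-in counts, eca-miR-145 in EV-recipient chondrocyte replicate 2 (0.0476) stood apart from the other 4 libraries of its group, which lay between 0 and 0.00782. The gap was 0.836 of the group's range, above Dixon's critical value at the 95% level for 5 samples. It rests on 9 counts against 0 to 2, and chance flags about 1 in 20 of the 10 groups of values examined. eca-miR-143 had 125 counts in the synoviocyte library that entered no comparison, above the floor of 3 counts.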

How the results depend on the processing

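Of 20 alternatives for eca-miR-143, all kept the direction. The exact permutation test had no adjusted p, and 9 of the other alternatives left the adjusted p above 0.05. The log2 fold change was then 2.95 with spike-in counts as library size, 2.94 with the replicate block, and 2.56 or 2.55 in limma with 1 or 10 RPM added before the logarithm, and it ran from 2.10 to 3.03 with each library left out. The exact permutation test of log2(RPM + 10), chosen after the data were seen, gave p = 0.0397 unadjusted. eca-miR-145 reached an adjusted p under 0.05 with DESeq2 (log2 fold change 4.13). Its exact permutation test (2.79), unadjusted and chosen after the separation of the groups was seen, adds no support. Its log2 fold change ran from 2.94 to 4.41 with each library left out and was 3.16 with the replicate block (unadjusted p = 0.187 in edgeR). It could not be tested under the other filters. The replicate numbers do not pair the libraries, which come from different horses: over the 4 numbers that both groups have, deviations from the group means correlated at -0.40 to 0.11. With the block, the log2 ratio of the members differed by 0.32 (exact permutation p = 0.5). That difference was -0.26 without a pseudocount and -0.51 to 0.42 with each library left out, so its sign is not determined. The ratio from libraries with at least 10 counts of each member was not run, as only 2 synoviocyte libraries have them. The number of miRNAs at an unadjusted p under 0.05, 9 as reported, was 17 with edgeR's own filter, 44 with no filter and 0 with spike-in scaling in edgeR (no other tool was run with it), and 7 to 18 with each library left out (16 without synoviocyte replicate 4). At an adjusted p under 0.05, 4 as reported, it was 14 with no filter, 0 with spike-in scaling, 1 in limma with either pseudocount, 1 with the block and 1 to 8 with each library left out (1 without chondrocyte replicate 2, 3, 4 or 5 or synoviocyte replicate 3, and 2 without synoviocyte replicate 2). The upper ends 18, 8 and 3.03 all come from leaving out chondrocyte replicate 1, the shallowest library, which also moved the filter so that 81 miRNAs were tested. Depth limits eca-miR-145 and the ratio: 1 count was worth 204 RPM in chondrocyte replicate 1, against 2.25 RPM in chondrocyte replicate 2.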
